A study of Mus musculus with 32 samples.

Results

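Loss of Pparg was compared in immature dendritic cells (iDCs) that had received only vehicle. Bone marrow was taken from 4 mice labeled Pparg+/- LysCre (mice 1 to 4) and 4 labeled Pparg fl/- LysCre (mice 5 to 8), and their 8 arrays are all the vehicle-treated iDC arrays among the 32 of the series. All mice were labeled C57Bl/6. Marrow cells were cultured for 9 days, as the labels give it, with GM-CSF and IL-4 at 20 ng/ml each and with vehicle (DMSO:ethanol), and the methods give another length of culture. No array here received the PPARγ agonist rosiglitazone (RSG). Both genotypes carry a null Pparg allele and the LysCre transgene, in which Cre recombinase is expressed from the lysozyme locus of myeloid cells. The remaining allele is intact in Pparg+/- LysCre mice and flanked by loxP sites in Pparg fl/- LysCre mice, so the comparison is of a single Pparg copy with its deletion, and no wild-type cells were included. Each mouse also gave an RSG-treated iDC culture and macrophage cultures on other arrays.

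PPARγ is a nuclear receptor that binds DNA as a dimer with RXR and is activated by fatty acids, their oxidized derivatives and RSG. It is best known for driving fat cell formation and lipid uptake. In dendritic cells, which take up, process and present antigens, it is induced during differentiation with GM-CSF and IL-4 and controls lipid metabolism and the display of lipid antigens. IL-4 acts through the transcription factor STAT6.

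The arrays are single-color chemiluminescence arrays on which digoxigenin-labeled cRNA is read as a signal per probe. A probe was taken as detected where its signal-to-noise ratio (S/N) was at least 3, and 14190 to 15710 of 33012 noncontrol probes were detected per array. Values below are log2 signals after quantile normalization over the 32 arrays, and differences are Pparg fl/- LysCre minus Pparg+/- LysCre. A gene symbol was available for 325 probes. No probe could be named for any of the 10 lists of genes named in the paper, PPAR-regulated lipid genes, interferon response, cell cycle, dendritic cell, macrophage, neutrophil, eosinophil and mast cell, lymphocyte or stromal markers. The level of Pparg, which would check the genotype labels, and the identity of the cells as dendritic cells were therefore not analysed here. In such bulk cultures, fewer cells of a type and less RNA per cell cannot be told apart.

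The array of mouse 5 stood apart from the others in its signal, though not in detected probes or correlation, before any gene was compared. It had the highest median signal of the 32 arrays (613) and the lowest share of signal in the brightest 100 probes (19.0%), against 401 to 468 and 23.6% to 24.9% in mice 6 to 8. In Pparg+/- LysCre mice these were 311 to 443 and 23.9% to 26.6%. The RSG-treated iDC array of mouse 5 went the other way, with the lowest median of the 32 (270) and 27.9%. Its macrophage arrays had 350 and 23.4% with vehicle and 474 and 19.9% with RSG. The RSG-treated iDC array of mouse 8 had 598 and 20.6%. On its vehicle-treated iDC array mouse 5 had 14568 detected probes, within the range of the 8 arrays. Its correlation with mice 6 to 8 was 0.956 to 0.960, against 0.957 to 0.964 within Pparg+/- LysCre and 0.946 to 0.965 between genotypes. Between genotypes, the median signal (exact two-sided permutation test, p = 0.0857) and the brightest share (exact p = 0.143) did not pass the test with 4 mice against 4, for which 0.0286 is the smallest possible p. Over these and the number of detected probes the adjusted exact p was 0.214 or more. Scan days held mice 1 and 2, 3 and 4, 5 and 6, and 7 and 8, so scan day and genotype cannot be told apart. Results are given with and without mouse 5.

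With all mice, 471 of 16620 tested probes passed an adjusted p of 0.05 and a change of at least 1.5-fold in limma, which is 2.83% of the probes tested. Of these, 213 were higher (1.28%) and 258 lower (1.55%) in Pparg fl/- LysCre iDCs. Under median scaling the split was 108 higher and 219 lower. The number was 174 with only the 8 compared arrays in the fit, 63 with no detection filter and 28 under the methods' t-test after adjustment. The median change was 2.32-fold among the higher and 2.03-fold among the lower probes, and 267 changed at least 2-fold. Of the 471, 447 had groups of 4 that did not overlap, and 2485 tested probes (15.0%) had such groups, called or not, 6.19% with Pparg fl/- LysCre higher and 8.76% with it lower. Without mouse 5 the share was 29.7%, and leaving out a mouse can only keep or raise it. The median 95% confidence interval of a probe, not adjusted for the number of probes, reached 0.433 (log2) to either side. Smaller differences were generally not detectable with this number of arrays. A call asked for more, since it needed at least 1.5-fold and an adjusted p under 0.05.

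The number of called probes rested on the mice included. Without mouse 5 it was 2029 (12.2%), 1149 higher (6.91%) and 880 lower (5.29%), and 470 of the 471 probes were among them with the same direction. Without any one of the other mice it fell to between 36 (without mouse 2) and 76 (without mouse 3), with 61 without mouse 1, 50 without mouse 4, 41 without mouse 6, 37 without mouse 7 and 71 without mouse 8. Once mouse 5 was out, leaving out any further mouse kept the number between 1657 and 1885. Mouse 5 was left out with earlier results of these data known, which favors a separation of the remaining mice.

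**Figure D1:**
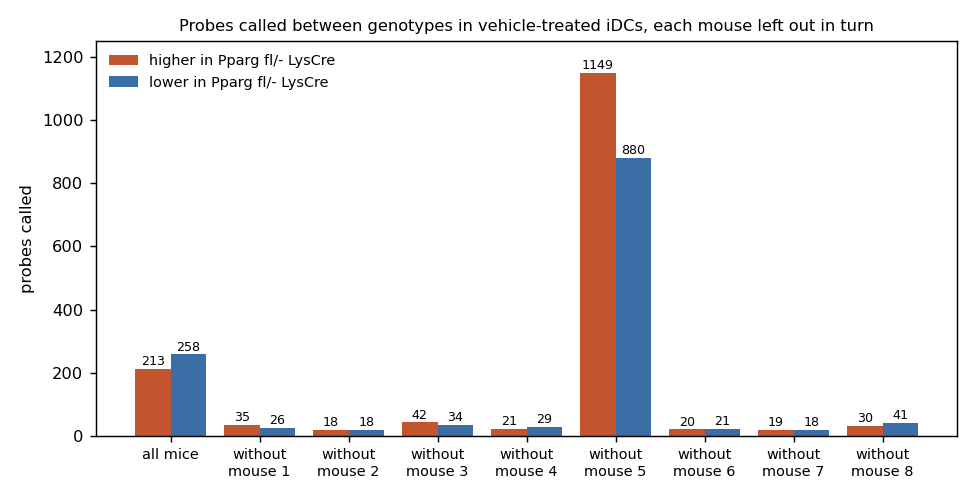
Number of probes called higher (orange) or lower (blue) in Pparg fl/- LysCre than in Pparg+/- LysCre vehicle-treated iDCs, with all mice and with each mouse left out in turn (all its iDC arrays). With all mice 213 and 258 probes were called, without mouse 5 these were 1149 and 880, and without any other mouse at most 42 and 41.

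**Figure D2:**
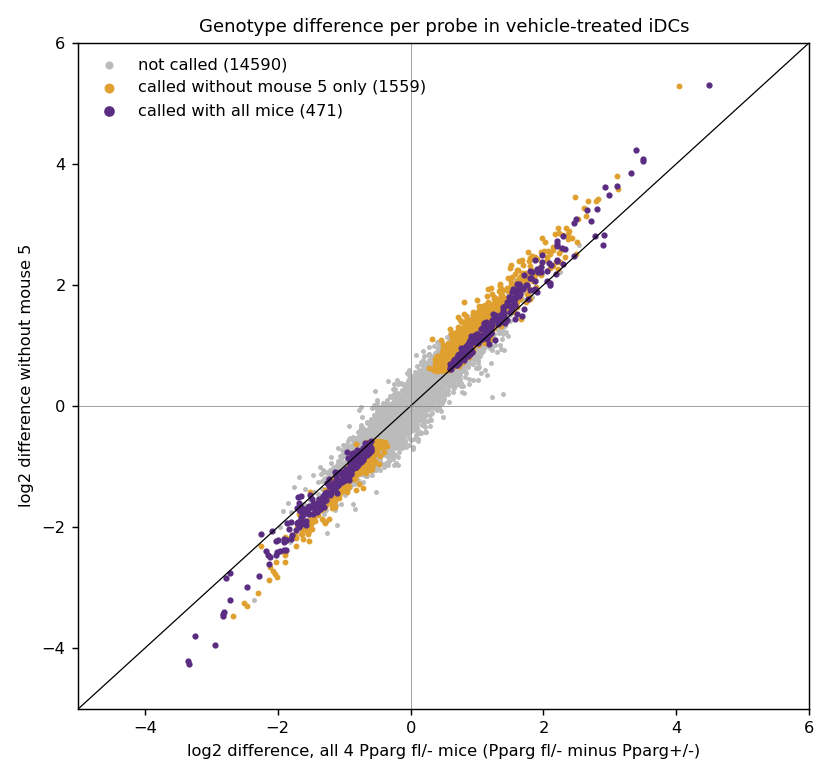
Log2 difference between genotypes of each of 16620 probes with all mice (horizontal) and without mouse 5 (vertical). The line marks equal values. Of the 2030 probes called in either fit, 1945 lie farther from 0 without mouse 5.

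Among the probes called with all mice 3 had a gene symbol (1.80% of the 167 tested probes with a symbol). Of these, Gask1b and 5830415G21Rik were lower and C130026I21Rik was higher in Pparg fl/- LysCre iDCs. Gask1b and 5830415G21Rik were also on a list of genes chosen from these arrays earlier, so their calls are not independent evidence.

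Gask1b (1110032E23Rik) encodes a Golgi-associated protein. Its log2 signal was 9.14, 10.03, 9.92 and 10.05 in mice 1 to 4 and 8.91, 7.60, 7.60 and 7.52 in mice 5 to 8. The groups did not overlap, but mouse 5 lay just under the lowest Pparg+/- LysCre mouse and was the only Pparg fl/- LysCre mouse with a detected signal. The difference was -1.88 ± 0.47 (SE, n = 4 per genotype), a measured 3.67-fold lower level (limma, adjusted p = 0.0456), and 3 of the 4 Pparg fl/- LysCre values behind it were below the detection threshold. Without mouse 5 Gask1b was not well above background in any Pparg fl/- LysCre array, and Pparg+/- LysCre cells were at least 4.63-fold higher (adjusted p = 0.00419). The call with all mice was lost without each of the other mice (adjusted p of 0.0795 to 0.134) and, among further settings, under median scaling (adjusted p = 0.0517).

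5830415G21Rik is a transcript known from a cDNA clone. Its log2 signal was 12.83, 12.77, 12.46 and 12.88 in Pparg+/- LysCre and 12.30, 11.80, 11.44 and 11.59 in Pparg fl/- LysCre mice. The groups did not overlap, and mouse 5 was again the Pparg fl/- LysCre mouse nearest to the controls. The difference was -0.95 ± 0.18, or 1.93-fold lower (limma, adjusted p = 0.0171, n = 4), and -1.12 ± 0.13 without mouse 5 (adjusted p = 0.000297). It kept its call without mouse 3, and on leaving out mouse 1, 2, 4, 6, 7 or 8 the adjusted p was 0.0614 to 0.0769. With only the 8 vehicle-treated iDC arrays in the fit it was 0.0663. In that fit none of the 7 probes named as called with all mice passed (limma, adjusted p of 0.0549 to 0.0915).

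C130026I21Rik lies on chromosome 1 a few genes from Sp110, Sp140 and Sp100, which encode nuclear body proteins, in a cluster with many gene copies and pseudogenes. A probe there may read several copies, so its level is uncertain. The log2 signal was 12.54, 12.55, 12.98 and 12.75 in Pparg+/- LysCre and 13.16, 13.61, 13.83 and 13.90 in Pparg fl/- LysCre mice. Every Pparg fl/- LysCre mouse was above every control. The difference was 0.92 ± 0.23, or 1.90-fold higher (limma, adjusted p = 0.0437, n = 4), and 1.08 ± 0.22 without mouse 5 (adjusted p = 0.00629). The call with all mice was lost without each other mouse (adjusted p of 0.0653 to 0.134) and under median scaling (adjusted p = 0.0730).

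The called probes with the largest changes carry only gene model identifiers. The 4 below were chosen as the 2 largest rises and 2 largest falls whose groups did not overlap. mCG15634.1 had a log2 signal of 10.11, 12.99, 11.96 and 13.22 in Pparg+/- LysCre and 14.11, 17.03, 17.31 and 17.77 in Pparg fl/- LysCre mice, a 22.4-fold higher level (limma, adjusted p = 0.0461). mCG123006 was at 7.07, 8.68, 8.58 and 8.69 against 10.10, 11.89, 11.97 and 13.04, a measured 11.3-fold higher level (adjusted p = 0.0341), with 1 of the 4 control values detected. In both, mouse 5 was the lowest Pparg fl/- LysCre mouse. mCG1702.2 was at 12.35, 12.21, 12.64 and 12.39 against 11.66, 7.83, 7.40 and 9.33, a measured 10.2-fold lower level (adjusted p = 0.0465), with 2 of the 4 Pparg fl/- LysCre values detected. Its call was lost with the mouse as a random replicate block (adjusted p = 0.0611) and under median scaling (0.0546), as was that of mCG15634.1 under median scaling (0.0543). With scan day as a random block over 16 arrays, mCG15634.1 (just over 0.05), mCG1702.2 (0.0518) and Gask1b (0.0511) lost the call, and over the 8 compared arrays mCG10552.2 (0.0564) and mCG1702.2 (0.0515) did. With the barcode series as a block mCG15634.1 (0.0520), mCG1702.2 (0.0535) and Gask1b (0.0520) lost it. mCG10552.2 was at 12.91, 13.33, 13.47 and 12.97 against 12.65, 8.96, 9.63 and 8.11, a measured 10.1-fold lower level (adjusted p = 0.0431), with mouse 5 the only Pparg fl/- LysCre mouse detected. For both mCG1702.2 and mCG10552.2, mouse 5 was within 1 log2 unit of the controls' mean while mice 6 to 8 were far below them. Without mouse 5 the differences of the 4 probes were 5.30, 4.04, -4.21 and -4.27, with adjusted p-values of at most 0.00311, and mCG10552.2 was then not detected in Pparg fl/- LysCre cells, which makes its 19.2-fold a lower bound. When any one of the other mice was left out in place of mouse 5, none of the 4 was called (adjusted p of 0.0849 to 0.136).

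**Figure D3:**
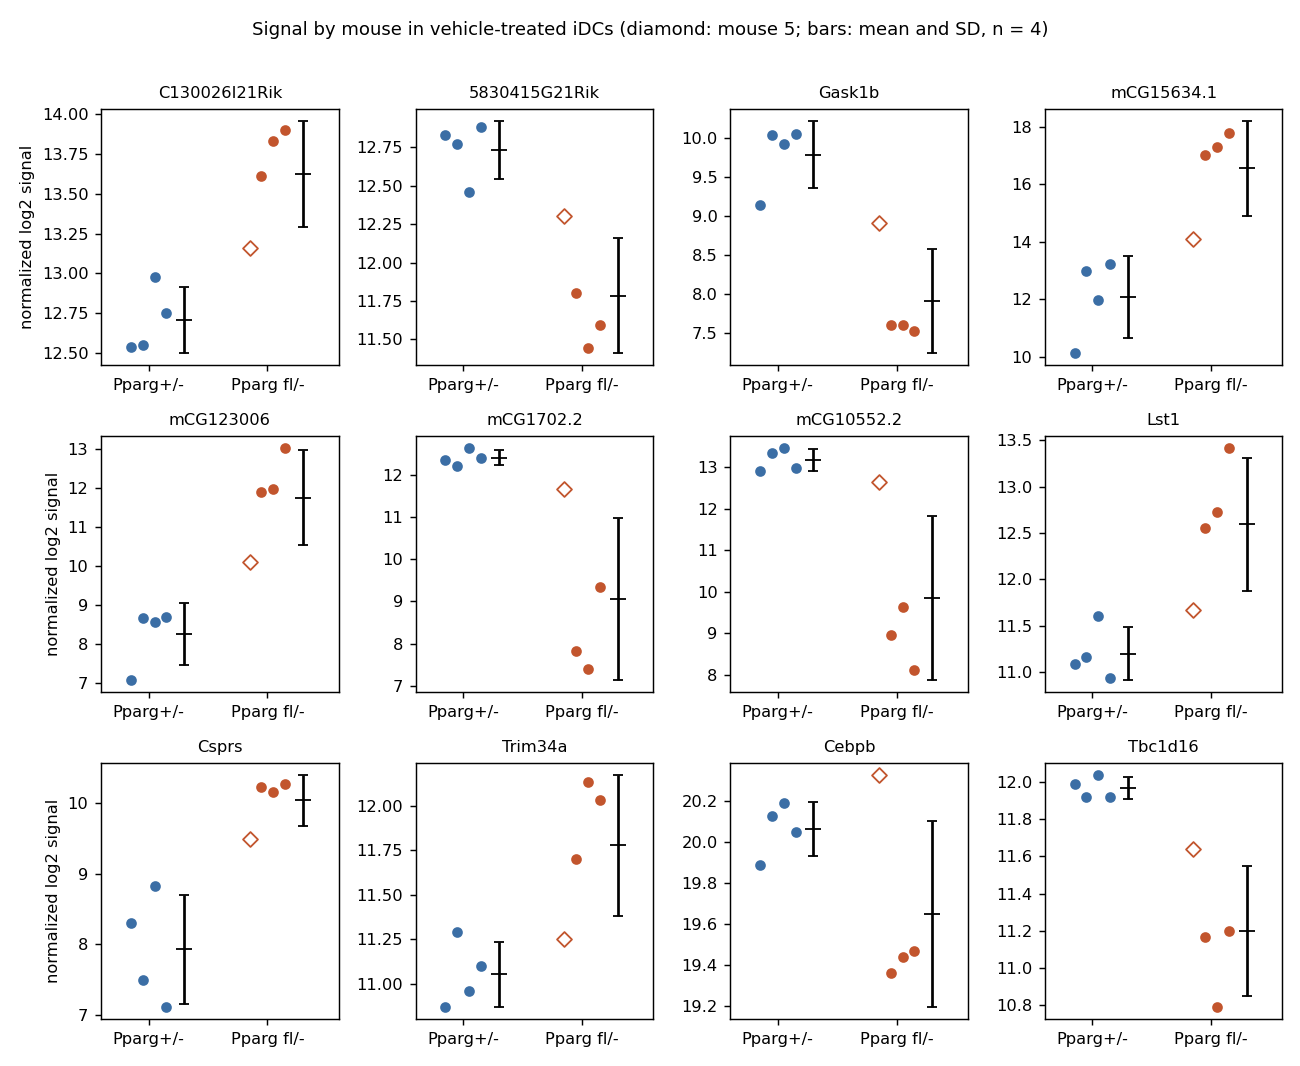
Normalized log2 signal of each mouse in vehicle-treated iDCs for 12 named probes (blue: Pparg+/- LysCre, mice 1 to 4; orange: Pparg fl/- LysCre, mice 5 to 8; diamond: mouse 5; bars: mean and SD, n = 4). The vertical axes differ between panels. Mouse 5 lies between the Pparg+/- LysCre mice and mice 6 to 8 in most panels, and above all other mice for Cebpb.

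In the main fits, a further 8 genes were called without mouse 5 and not with all mice. Of the tested probes with a symbol, 7.19% were called without mouse 5, against 12.2% of all. Those higher were Csprs, Lst1, Trim34a, Alkbh5 and Notum, and those lower were Cebpb, Tbc1d16 and Zfp146. With all mice their adjusted p-values ran from 0.0626 to 0.524. Some passed with mouse 5 kept in other limma settings. Over all 32 arrays these were Trim34a (adjusted p = 0.0210), Alkbh5 (0.0280), Lst1 (0.0370), Tbc1d16 (0.0410) and the second Cebpb probe (0.0417). Csprs passed with the barcode series as a block (0.0262), without mouse 1 (0.0315) and with scan day as a random block over 8 arrays (0.0274), among others.

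Cebpb encodes C/EBPβ, a transcription factor of myeloid cells that also acts early in fat cell formation. Its brighter probe was at 19.89, 20.13, 20.19 and 20.05 in Pparg+/- LysCre mice and at 20.33, 19.36, 19.44 and 19.47 in mice 5 to 8. Mice 6 to 8 were below every control, whereas mouse 5 was above them all. The difference without mouse 5 was -0.64 ± 0.10 (limma, adjusted p = 0.00166, n = 4 and 3) and with it -0.41 ± 0.20 (adjusted p = 0.246). Under median scaling the probe was called with all mice too (-0.66, adjusted p = 0.0397). A second probe was at 15.85, 15.80, 16.11 and 16.12 against 15.68, 15.15, 15.39 and 15.10. On it all Pparg fl/- LysCre mice were below the controls, mouse 5 least, and the difference without mouse 5 was -0.75 ± 0.16 (adjusted p = 0.00764). Both probes kept the call without mouse 5 when any further mouse was left out.

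Lst1, a leukocyte transmembrane adaptor gene in the major histocompatibility complex, was at 11.09, 11.16, 11.60 and 10.93 in Pparg+/- LysCre mice and at 11.67, 12.55, 12.73 and 13.42 in mice 5 to 8. The groups did not overlap, with mouse 5 only slightly above the highest control. Without mouse 5 the difference was 1.71 ± 0.27, or 3.26-fold (limma, adjusted p = 0.00137), against 1.40 ± 0.44 with it (adjusted p = 0.0859). Trim34a, of the TRIM family of ubiquitin ligases, was at 10.87, 11.29, 10.96 and 11.10 against 11.25, 11.70, 12.13 and 12.03. Here mouse 5 fell within the range of the controls, and without it the difference was 0.90 ± 0.17 (adjusted p = 0.00411). Trim34a has a close copy, Trim34b, which the probe may also read. Both genes kept the call without mouse 5 when any further mouse was left out.

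Notum, a secreted enzyme that inactivates Wnt proteins, was at 9.66, 9.35, 9.19 and 9.13 in Pparg+/- LysCre mice and at 9.06, 10.09, 9.87 and 10.39 in mice 5 to 8. Mouse 5 was below every control and mice 6 to 8 above them, with a difference of 0.79 ± 0.18 without mouse 5 (limma, adjusted p = 0.0116), or 0.65 without mouse 8 as well (adjusted p = 0.0536). Tbc1d16, which encodes an activator of Rab GTPases, was at 11.99, 11.92, 12.04 and 11.92 against 11.64, 11.17, 10.79 and 11.20. All Pparg fl/- LysCre mice were below the controls, and the difference without mouse 5 was -0.91 ± 0.16, or 1.88-fold lower (adjusted p = 0.00236). This call held without each further mouse.

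The other calls were less stable. Csprs, a gene of a repeated Sp100-related cluster whose copies a probe may not separate, was at 8.30, 7.49, 8.82 and 7.11 against 9.49, 10.23, 10.15 and 10.27 and was detected in 2 of 4 Pparg+/- LysCre and all Pparg fl/- LysCre mice. The groups did not overlap. The difference without mouse 5 was 2.29 ± 0.68 (limma, adjusted p = 0.0360), and leaving out mouse 2, 4, 6, 7 or 8 as well gave adjusted p-values of 0.0904 to 0.109. Alkbh5, an RNA demethylase, was at 13.39, 13.45, 13.63 and 13.55 against 13.89, 14.59, 14.67 and 13.80, with no overlap. Its difference without mouse 5 was 0.85 ± 0.27 (adjusted p = 0.0460), which became 0.0852 to 0.159 without mouse 1, 2, 3, 4, 6 or 7. Zfp146, a zinc finger gene, was at 9.80, 10.29, 9.59 and 9.38 against 9.60, 8.79, 9.45 and 8.16, which overlap. Its difference without mouse 5 was -0.96 ± 0.30 (adjusted p = 0.0446), which became 0.0585 to 0.184 without mouse 1, 2, 3, 4, 6 or 8.

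Of 386 genes on the 18 lists, 19 had a named probe, 18 were tested, and the 2 called are described above. The same 2 were called without mouse 5. Over all tested probes 2.83% were called with all mice, 1.55% lower, and 12.2% without mouse 5. Over the 15 genes singled out from these arrays earlier, which were all tested, 2 were lower, none was higher, and the median difference was 0.15, against -0.02 over all tested probes. Without mouse 5 these medians were -0.01 and -0.03. The other 7 lists with a tested member held 1 or 2 tested genes each and no call with or without mouse 5.

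In antigen presentation, the class I genes H2-Q7 and H2-Q8 were tested, which are near-identical copies that a probe may not tell apart. H2-Q7 was at 19.01, 19.07, 19.07 and 19.08 in Pparg+/- LysCre and at 19.30, 19.49, 19.55 and 19.52 in Pparg fl/- LysCre mice. Every Pparg fl/- LysCre mouse was above the controls, with a 1.32-fold difference (0.41 ± 0.12; limma, adjusted p = 0.0770) that was 1.38-fold without mouse 5 (adjusted p = 0.0229) and so below the fold required. H2-Q8 was at 15.43, 15.43, 15.36 and 15.62 against 15.41, 16.01, 16.01 and 15.48, groups that overlap (adjusted p = 0.410).

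In sphingolipid synthesis, Sgms2, a sphingomyelin synthase, was at 13.78, 13.68, 13.66 and 14.04 against 13.57, 13.46, 13.30 and 13.15. All 4 Pparg fl/- LysCre mice were below the controls, by 1.34-fold (-0.42 ± 0.18; limma, adjusted p = 0.172), and without mouse 5 the adjusted p was 0.0225 at 1.40-fold, again under the fold required. Paqr3, a Golgi membrane protein gene, showed -0.56 ± 0.20 (adjusted p = 0.110) and Ramp3, a partner of the calcitonin receptor-like receptor, 0.75 ± 0.28 (adjusted p = 0.133). In both the groups did not overlap and neither passed the test in the main fit. With scan day as a random block over the 8 compared arrays Ramp3 passed (limma, adjusted p = 0.0460).

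Among inflammatory genes, the sensor gene Nlrp3 differed by -0.11 (95% confidence interval -0.62 to 0.40) and Tlr7, a receptor for single-stranded RNA, by -0.34 (-0.88 to 0.20). Ear1, a ribonuclease gene on the IL-4 response list, differed by -0.11 (-0.78 to 0.56) and Tnfsf13, the TNF family ligand APRIL, by 0.16 (-0.07 to 0.39). Epdr1 was detected in 1 of 4 Pparg+/- LysCre and 2 of 4 Pparg fl/- LysCre arrays, so its measured difference of 0.72 (-0.31 to 1.75) rests mostly on undetected values. The differences were 0.32 for Acyp2 (-0.26 to 0.90) and -0.16 for the repressor gene Zbtb18 (-0.40 to 0.08). None of these passed the test (limma, adjusted p of 0.398 or more), and several intervals, among them those of Ear1, Nlrp3 and Tlr7, still allow changes of more than 1.5-fold. Lhx2 and the Wnt antagonist gene Sfrp4 were not detected in any vehicle-treated iDC array, so no fold is given.

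For red cell contamination, the alpha globin gene Hba-a1 and its chaperone gene Eraf were the only measured markers of 17 on the erythroid list. Hba-a1 was at 9.35, 9.76, 9.98 and 10.88 against 8.57, 10.38, 11.09 and 9.59, and was detected in all Pparg fl/- LysCre and in 3 of the Pparg+/- LysCre arrays. Eraf was detected in 1 and 2 of the 4. Neither differed between genotypes by the test (adjusted p of 0.967 and 0.935), and their part in other results was not tested.

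**Figure D4:**
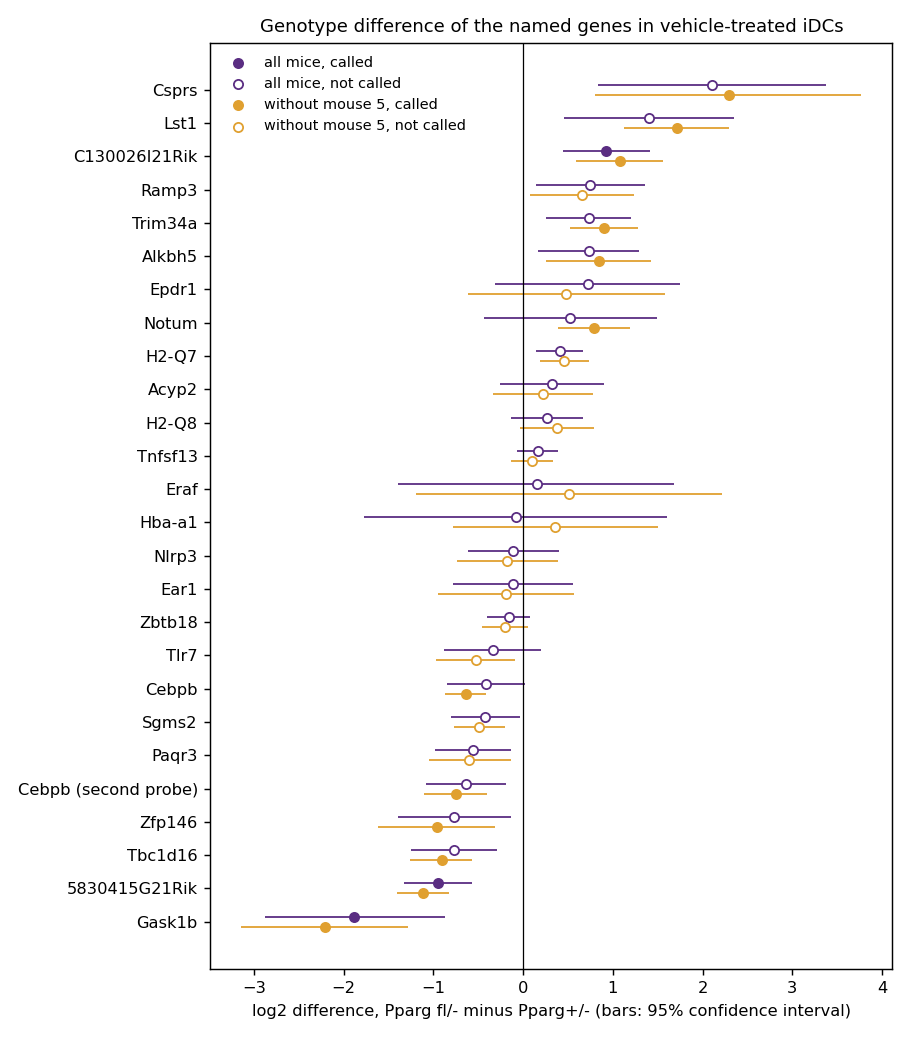
Log2 difference between genotypes (Pparg fl/- LysCre minus Pparg+/- LysCre) of the named genes in vehicle-treated iDCs with its 95% confidence interval, with all mice (purple) and without mouse 5 (yellow). Filled symbols passed the test and the 1.5-fold threshold, which with all mice were C130026I21Rik, 5830415G21Rik and Gask1b.

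Some probes were detected in a single genotype. With all mice, 30 of 33012 noncontrol probes were detected in all Pparg fl/- LysCre and no Pparg+/- LysCre array, and 14 in all Pparg+/- LysCre and no Pparg fl/- LysCre array. The lower bounds of their folds ran from 1.13 to 5.88 and from 1.33 to 3.73. Without mouse 5 there were 83 and 48 such probes. Leaving out an array can only keep or raise these counts. Both sets together held 44 probes with all mice, 131 without mouse 5 and 63 to 82 without any one other mouse. Of these 83, mouse 5 had a detected signal on 30, and of the 48 on 34, so on most of both sets it was detected or undetected as the controls were. Gask1b was the only one with a symbol.

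Mouse 5 was then placed on the 2029 probes called without it, on a scale from the Pparg+/- LysCre mean (0) to the mean of mice 6 to 8 (1). Its vehicle-treated iDC array lay at 0.253, while the Pparg+/- LysCre mice lay between -0.037 and 0.043 and mice 6 to 8 between 0.965 and 1.047, which the choice of probes places near 0 and 1. On 1549 of the probes (76.3%) mouse 5 was nearer to the Pparg+/- LysCre mean. It fell within the Pparg+/- LysCre range alone on 759, within that of mice 6 to 8 alone on 220, and between the ranges on 806. On 240 it lay outside both ranges and not between them, and on 4 within both. On the other arrays of mouse 5, scaled by the same mice and read over the same probes, it lay at 0.103 in RSG-treated iDCs and 0.091 in vehicle-treated macrophages. The mouse thus stood nearer the controls on these 3 of its 4 arrays, and its RSG-treated macrophage array was not placed on such a scale. Whether the genotype label of mouse 5 holds was not tested, and each value with all mice takes it as labeled. These positions are descriptions, since mice 1 to 4 and 6 to 8 chose the probes. The same mice also set the scale anew on each kind of array. Their group means are therefore 0 and 1 by construction, and only mouse 5 had no part in the scale.

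**Figure D5:**
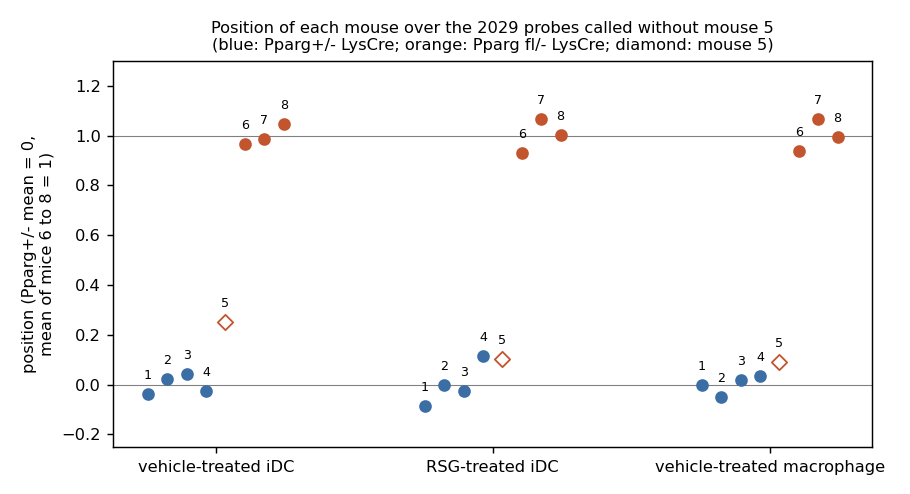
Position of each mouse (numbers) over the 2029 probes called without mouse 5, in vehicle-treated iDCs, RSG-treated iDCs and vehicle-treated macrophages, on a scale where the Pparg+/- LysCre mean is 0 and the mean of mice 6 to 8 is 1. Mouse 5 (diamond) lies at 0.253, 0.103 and 0.091.

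The genotypes were also compared in the RSG-treated iDCs of the same mice, on separate arrays. There 1106 probes were called (6.65%), and 128 were called in the same direction in vehicle-treated iDCs, which is 27.2% of the 471 and 11.6% of the 1106. Without mouse 5, 1163 probes were shared in direction, 57.3% of 2029 and 43.8% of 2654 (16.0% of those tested). The genotype difference itself differed between RSG and vehicle for 73 probes (0.439%) in limma, and for 210 (1.26%) without mouse 5. Without any one other mouse, the numbers were 218 to 714 with RSG and 1 to 15 for the difference. With the mouse as a random replicate block over its 2 iDC cultures the difference was called for 270 probes. Of the genes described above, 5830415G21Rik was among the 73 probes of the fit without the block, with a difference of -0.95 with vehicle and 0.33 with RSG (change of 1.28 ± 0.25, adjusted p = 0.0447). Gask1b was not (adjusted p = 0.194), at -1.88 with vehicle and 0.42 with RSG. C130026I21Rik was called with RSG too (1.09, adjusted p = 0.0134), as were mCG15634.1 (4.49, adjusted p = 0.0268) and mCG123006 (3.34, adjusted p = 0.0221). The other 2 probes were not, with mCG1702.2 at 0.27 (adjusted p = 0.863) and mCG10552.2 at -1.27 (adjusted p = 0.325). Without mouse 5, mCG10552.2 was called with RSG (-1.77, adjusted p = 0.0179), and mCG1702.2 was not (0.54, adjusted p = 0.616) but was called for the difference between RSG and vehicle (4.75, adjusted p = 0.0413). Cebpb was lower with RSG on its brighter probe (-0.76, adjusted p = 0.0351) and its second probe was not called (-0.49, adjusted p = 0.143). Without mouse 5 both probes were called with RSG (-0.92, adjusted p = 0.000155, and -0.69, adjusted p = 0.00962).

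For the 2 genes called lower in Pparg fl/- LysCre cells, the difference between RSG and vehicle in Pparg+/- LysCre iDCs was -1.46 for 5830415G21Rik (limma, adjusted p = 0.000158) and -1.41 for Gask1b (adjusted p = 0.0848), which did not pass the test. In Pparg fl/- LysCre iDCs it was -0.19 and 0.89, neither called (adjusted p of 0.801 and 0.539). These comparisons share the vehicle-treated arrays with the genotype comparison, so the values are only set side by side. They also did not pair the cultures of a mouse. In mice 5 to 8 Gask1b was at 8.91, 7.60, 7.60 and 7.52 with vehicle and 9.68, 7.98, 8.39 and 9.14 with RSG, higher in each. The vehicle values of mice 6 to 8 were undetected, and no paired value is given here.

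In vehicle-treated macrophages of the same mice, 26 probes were called for genotype with all mice (0.156%), and 2488 (15.0%) without mouse 5. No probe was called in both cell types with all mice. Without mouse 5, 509 were called in both with the same direction, 25.1% of the 2029 and 20.5% of the 2488, and 164 with opposite directions. Without mouse 5, the red cell gene Hba-a1 was 4.30 higher (log2) in Pparg fl/- LysCre macrophages (limma, adjusted p = 8.34e-07). In RSG-treated iDCs it was then 1.55 higher (adjusted p = 0.0479). With all mice these differences were 3.34 (adjusted p = 0.0761) and 0.68 (adjusted p = 0.606), and neither was called. Eraf, the other measured red cell gene, was lower in Pparg fl/- LysCre iDCs with RSG (-3.40 without mouse 5, adjusted p = 0.00862, and -3.30 with all mice, adjusted p = 0.0157). In macrophages without mouse 5 it was at -0.55 (adjusted p = 0.448). With RSG its log2 signal was 9.33 to 10.41 in mice 1 to 4 and 6.03 to 6.79 in mice 5 to 8. Detection on those arrays is not given here, so its difference is a measured size only. The part of these genes in the counts was not tested. The difference between genotypes differed between iDCs and macrophages for 888 probes (5.34%), and for 2556 (15.4%) without mouse 5. With the mouse as a random replicate block, 341 and 1453 were called with all mice. Without any one other mouse these numbers were 0 to 4 for macrophages and 231 to 327 for the difference. Of the genes named above, Paqr3 (-1.76, adjusted p = 0.0227 in limma), Zbtb18 (-1.04, adjusted p = 0.0431), mCG10552.2 (-3.24, adjusted p = 0.0314) and the second Cebpb probe (-0.92, adjusted p = 0.0469) were among the 888, with the difference given as iDC minus macrophage. Sfrp4 was among them too, but was not detected in iDCs, so its difference is not a measured size. It was at 10.08 to 12.55 in Pparg+/- LysCre and 6.02 to 9.48 in Pparg fl/- LysCre macrophages. Of the named probes called in iDCs without mouse 5, the difference between cell types was then called for mCG123006 (3.23), Lst1 (1.61), Trim34a (0.74), Zfp146 (-1.76), Gask1b (-1.84) and mCG10552.2 (-4.13). It was called for both Cebpb probes too (-0.65 and -1.19), all at a limma adjusted p of at most 0.0370. Named genes not called in iDCs also passed for it (limma, adjusted p of at most 0.0390). They were Hba-a1 (-3.94), H2-Q8 (-3.37), Paqr3 (-2.14), Zbtb18 (-1.35), Tlr7 (-1.06), Sgms2 (-0.83), Ear1 (2.53), Acyp2 (1.38) and Sfrp4, which was undetected in iDCs. The sizes for mCG123006, Gask1b and mCG10552.2 rest partly on undetected iDC values. Of the named probes called in iDCs without mouse 5, 4 were also called in macrophages, in the same direction. They were mCG15634.1 (5.30 in iDCs and 4.71 in macrophages, adjusted p = 0.000318), Csprs (2.29 and 2.04, adjusted p = 0.0323), Tbc1d16 (-0.91 and -0.78, adjusted p = 0.0102) and mCG1702.2 (-4.21 and -2.18, adjusted p = 0.0221), each with the macrophage p. In macrophages the dimmer genotype was at 5.07 to 7.24 for mCG15634.1, 6.32 to 8.02 for Csprs and 7.56 to 8.78 for mCG1702.2. Detection on these arrays is not given here, so the macrophage differences of those probes are measured sizes only.

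The promoters of the called genes were read from RefSeq (GRCm38.p6), which gave 250 bases before to 50 bases after the start for 6 of the 11 genes with a symbol (C130026I21Rik, Alkbh5, Trim34a, Cebpb, Zfp146 and Gask1b). The start is that of a single transcript, and for Gask1b and C130026I21Rik it lies inside the span RefSeq gives the gene, so the region before the outermost start was not searched. PPARγ and RXR bind a direct repeat, searched here as 2 copies of AGGTCA spaced by 1 base of any kind, and STAT6 binds TTC and GAA spaced by 4 bases. None of the 6 promoters held the repeat, AGGTCA by itself or the STAT6 site on either strand, against 0.0396%, 16.3% and 6.95% of 32851 promoters of the same length. Every repeat also holds AGGTCA. No match says only that these letters are not in this window. The promoters are shown for Gask1b and C130026I21Rik, the genes called with all mice for which a promoter was given, and for Cebpb, in lower case because no motif was found to mark.
Gask1b, chr3:79885680-79885979, + strand: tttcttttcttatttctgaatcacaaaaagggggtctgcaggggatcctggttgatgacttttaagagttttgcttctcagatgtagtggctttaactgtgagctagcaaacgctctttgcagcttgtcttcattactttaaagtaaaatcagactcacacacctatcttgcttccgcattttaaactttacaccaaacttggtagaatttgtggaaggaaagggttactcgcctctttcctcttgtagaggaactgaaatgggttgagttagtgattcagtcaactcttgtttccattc
C130026I21Rik, chr1:85270517-85270816, - strand: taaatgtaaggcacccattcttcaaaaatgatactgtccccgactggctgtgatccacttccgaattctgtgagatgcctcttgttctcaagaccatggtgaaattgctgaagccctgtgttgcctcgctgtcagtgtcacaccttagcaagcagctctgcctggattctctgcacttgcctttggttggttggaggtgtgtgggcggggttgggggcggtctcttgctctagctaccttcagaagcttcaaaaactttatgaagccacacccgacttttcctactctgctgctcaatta
Cebpb, chr2:167688665-167688964, + strand: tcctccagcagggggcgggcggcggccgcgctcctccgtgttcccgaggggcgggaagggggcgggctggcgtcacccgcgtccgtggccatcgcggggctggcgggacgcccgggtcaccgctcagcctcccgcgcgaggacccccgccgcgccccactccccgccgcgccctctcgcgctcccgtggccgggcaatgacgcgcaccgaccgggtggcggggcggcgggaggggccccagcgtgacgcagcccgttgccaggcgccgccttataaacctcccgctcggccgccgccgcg
They differ in base composition. The Cebpb promoter holds 50 CpG dinucleotides and 80.7% G and C, that of Gask1b 3 and 39.7%, and that of C130026I21Rik 6 and 49.7%.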

How the data were processed

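RNA of cultured cells was labeled with digoxigenin and read on single-color Applied Biosystems arrays, which the methods of the study do not describe. For each array the authors deposited an intensity signal per probe, background-corrected and not scaled between arrays, with its standard deviation, an S/N score, an assay-normalized signal and flags. Where the S/N is 1 or less (38.2% to 42.1% of probes here), the listed signal is the noise level. The authors also deposited linear ratios over all arrays, used as an alternative after log2. The genome build is not given in the sources used here. No 2 arrays held identical values.

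Signals were log2 transformed and quantile normalized over 32 arrays. Probes detected (S/N of at least 3) on at least 3 of 4 arrays of any group were tested with limma 3.58.1 in R 4.3.3, a mean per group, over the 16 iDC arrays (16 macrophage arrays or all 32 for those comparisons). Calls needed a 1.5-fold change and, after Benjamini-Hochberg adjustment over all tested probes, a p under 0.05. The fit was tested on simulated data, and that outcome is not given here. Single values were compared by exact two-sided permutation tests. The methods' t-test, other scalings, filters, thresholds, arrays, blocks and leave-outs were alternatives.

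Probes were named through RefSeq (317) or supplementary tables (8), which is 0.984% of noncontrol probes, and 27930 carry gene model identifiers. Named genes were every tested list gene and all called genes. Also named were the 10 largest rises and falls called only without mouse 5 in the main fits. The 2 largest rises and falls without a symbol, among called probes whose groups do not overlap, were added. The probe with the highest mean stood for a gene. Members and lists were chosen with earlier results of these data known. The 8 compared arrays are of separate mice, 1 culture each, but each mouse gave 4 cultures in all. The main iDC fit also held the RSG-treated iDC array of each mouse and had no term for the mouse. It therefore treated cultures of the same mouse as independent. That fit called 471 probes, against 174 with only the 8 compared arrays and 614 with the mouse as a random replicate block.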

Additional observations from a re-analysis of the deposited data

Results flagged for a closer look

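Within groups of 4 mice, 10 of 76 sets of values had a mouse far from the other 3 of its group. Chance gives about 1 in 20 for values not chosen on the mice, which does not apply to the positions of mouse 5 or to genes named for their call without mouse 5. Of the 10, 3 are the positions of mouse 5 (0.253 in vehicle-treated iDCs, 0.103 in RSG-treated iDCs and 0.091 in vehicle-treated macrophages). On single genes in vehicle-treated Pparg fl/- LysCre iDCs, mouse 5 was far from mice 6 to 8 for Gask1b (8.91), Csprs (9.49) and Cebpb (20.33), and mouse 8 was low for Paqr3 (10.45). In Pparg+/- LysCre iDCs, mouse 1 was low for mCG123006 (7.07), H2-Q7 (19.01) and Gask1b (9.14).

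The genotype difference differed between RSG and vehicle in iDCs for 73 probes, 5830415G21Rik among them (1.28). Between iDCs and macrophages it differed for 888 probes, among them Sfrp4 (3.86, resting on undetected iDC values), Zbtb18 (-1.04), Paqr3 (-1.76), the second Cebpb probe (-0.92) and mCG10552.2 (-3.24), each by limma's test of the difference. The cause was not tested.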

How the results depend on the processing

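For the genotype effect in vehicle-treated iDCs (471 called), the count was 63 when undetected probes were kept, 267 when 2-fold was required, 28 and 1568 under the methods' t-test with and without adjustment, 174 with only the 8 arrays, 957 with all 32 arrays, and 36 to 2029 with a mouse left out. Without mouse 5 (2029 called), a 2-fold threshold gave 1111 and the adjusted t-test 1221. No paired analysis was possible between genotypes because each mouse has 1 genotype. With the mouse as a random replicate block over its iDC arrays the counts were 614 and 2024. With scan day as a random block over 16 arrays they were 402 and 2021. Chosen after seeing the data, the series of the slide barcodes was taken as a block, which gave 464 and 2056, and within the larger series (3 mice against 3) 11 probes were called. The barcode series itself separated 230 probes over the 32 arrays, none of them called for genotype.

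For RSG-treated iDCs (1106), no filter gave 407 and leaving out a mouse 218 to 2654. For macrophages (26), median scaling gave 14, no filter 0 (limma, 4169 at an unadjusted p under 0.05), the replicate block 341 and leaving out a mouse 0 to 2488. Those at 0 were without mouse 2, 4 or 8, with 2961, 3154 and 2638 probes at an unadjusted p under 0.05 in limma. For the difference between RSG and vehicle (73) the same settings gave 28, 1, 270 and 1 to 210, and for iDCs against macrophages (888) they were 533, 355, 1453 and 231 to 2556. Median scaling moved the median of all probes to -0.16 with RSG and to -0.11 for the difference between RSG and vehicle, and split those calls 373 higher to 1165 lower and 5 to 23 (546 to 560 and 34 to 39 otherwise). It split iDCs against macrophages 144 to 389 (335 to 553 otherwise) and macrophages 7 to 7 (9 to 17 otherwise).

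Probes detected in a single genotype (44) numbered 63 to 131 without a mouse, a count that leaving out a mouse cannot lower. The difference in detected probes per array (-8.25) ran from -252 to 255 without a mouse. Over the alternatives, the 7 named probes called with all mice kept the call in 81 values and lost it in 97, with no change of direction. The 16 called without mouse 5 kept it in 334 and lost it in 42. In 13 values the direction of an uncalled gene reversed. With each mouse left out in turn, Sfrp4 (undetected) ran from -0.01 (without mouse 5) to 0.58, Nlrp3 from -0.25 to 0.13 (without mouse 8), Eraf from -0.48 to 0.85 and Ear1 from -0.37 to 0.09. Eraf was -0.86 within the larger series and -0.23, -0.48 and -0.29 without mouse 3, 7 or 8. Hba-a1 was 0.21, 0.36 and 0.02 without mouse 4, 5 or 8. Ear1 was 0.17 within the larger series and 0.03, 0.09 and 0.01 without mouse 2, 3 or 6. The causes were not tested. The number of mice limits the precision of all these values, and probes near the noise level limit what can be said of dim genes.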
